A study of Komagataella phaffii with 102 samples.

Results

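Y-7556 and YB-4290 are wild isolates of Komagataella phaffii, a methylotrophic yeast long known as Pichia pastoris and used to make recombinant proteins. The study found their genomes identical to each other and lists both under the same alternate collection number, so they hold the same genotype. Their response to methanol was read from 11 libraries of the series, chosen by strain and condition in the labels. The 6 methanol libraries (3 of Y-7556 and 3 of YB-4290) were set against 5 libraries at 48 h glycerol (2 of Y-7556 and 3 of YB-4290), with strain as a block. The series covers 11 nontransgenic strains.

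All cultures were started at an OD600 of 0.1 in a complex glycerol medium (BMGY, 4% glycerol) in multiwell plates. After 24 h they were collected (24 h glycerol) or pelleted and resuspended. The resuspended cells grew for another 24 h in methanol medium (BMMY, 1.5% methanol) or in fresh BMGY (48 h glycerol). The methanol and 48 h glycerol cultures therefore share their age, 48 h in all, and differ in the carbon source of the last 24 h. Y-7556 and YB-4290 also have 6 libraries at 24 h glycerol, 3 each. For comparison, 10 libraries of Y-11430 (7 methanol and 3 at 48 h glycerol) and 6 of YB-4289 (3 and 3) were used. Y-11430 supplied the reference assembly and is nearly identical in sequence to Y-7556 and YB-4290. YB-4289 is more distant in sequence, and the study grouped it with Y-7556 and YB-4290 by expression in these libraries.

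K. phaffii can grow on methanol as its only carbon source. Alcohol oxidase in the peroxisome converts methanol to formaldehyde, which is then either assimilated through xylulose 5-phosphate or oxidised to carbon dioxide for energy. Genes of this pathway are held off on glycerol and are among the most strongly expressed genes of the yeast on methanol, which is why their promoters drive recombinant genes in this host. The deposited tables give genes by identifier (GQ67 numbers) without names, and 0 of the 5116 identifiers matched a RefSeq gene table. Genes are therefore given by identifier and position on the authors' Y-11430 assembly, and a function is stated only for the few that the study itself pairs with a symbol.

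The total count over the listed genes ranged between 1449519 and 4446043 in the methanol libraries, and between 2973181 and 4455314 in the 48 h glycerol libraries. The lowest totals belonged to replicate C of both strains in methanol. Same-lettered libraries of the 2 strains deviated together from their group means, with correlations across genes of 0.415 to 0.645 in methanol, 0.197 and 0.331 at 48 h glycerol and 0.619 to 0.776 at 24 h glycerol. What the letters mark is not stated in the labels. Part of the abundance lay outside the listed genes, and this part was 21.7% ± 5.12 of the transcripts per 1000000 (TPM) in methanol and 19.0% ± 6.54 at 48 h glycerol (SD, n = 6 and 5, exact permutation test within strain, two-sided, p = 0.505). Levels are given as counts per 1000000 counts (CPM), relative to the total of the listed genes in each library. They are shares of the RNA of a bulk culture. Fewer cells expressing a gene and less of its transcript per cell cannot be told apart in them.

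A broad change separated the carbon sources. Of 5012 genes tested with edgeR, 961 were higher in methanol (19.2%) and 977 lower (19.5%), so 38.7% of the transcriptome passed an adjusted p under 0.05 with at least a log2 fold change of 1 in either direction. Without the fold minimum 3645 genes passed. With replicate A of both strains left out, 971 were higher and 1037 lower, and 1810 of the calls were shared. A log2 change of 2 or more was reached by 327 genes that rose and 272 that fell, and one of 4 or more by 55 and 27. The median of the called changes was 1.62 among genes that rose and −1.58 among genes that fell.

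The genes called higher held 50.4% of the listed counts in methanol and 14.1% at 48 h glycerol, and those called lower held 8.14% in methanol and 35.9% at 48 h glycerol. As calls define both sets, these shares describe their weight only. Scaling mattered for the balance of directions. TMM scaling centred the fold changes (median 0.00 over all genes tested), whereas the ratio of mean CPM had a median log2 of −0.31. With limma on the deposited log2(TPM + 1) values the median was −0.33, and 1983 genes were called, 621 higher and 1362 lower. The fold changes below are relative to the TMM centre and so lie above the plain ratio of the CPM printed beside them by about that shift.

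**Figure D1:**
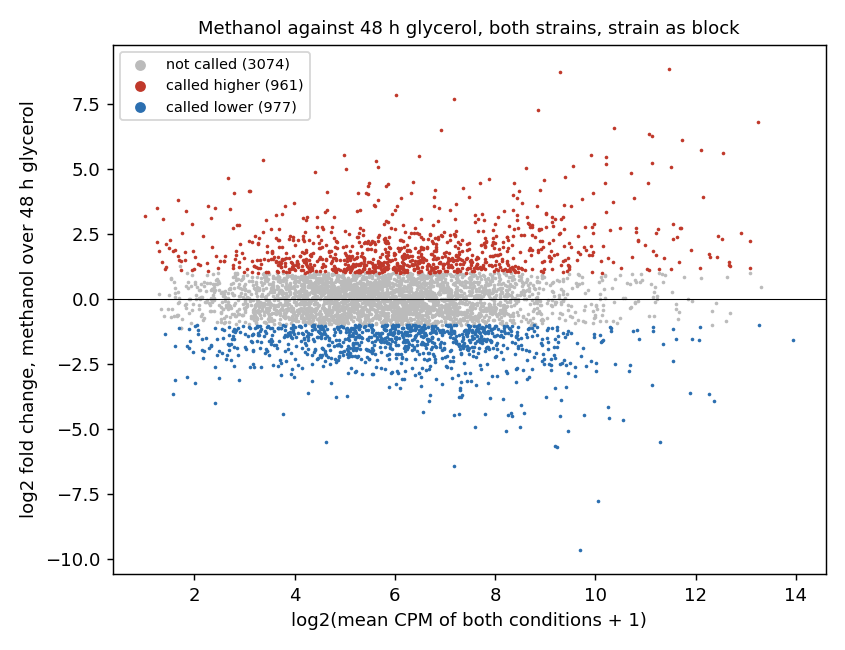
Each point is 1 of 5012 genes, with the log2 of its mean CPM over both conditions (plus 1) on the x axis and its fitted log2 fold change, methanol over 48 h glycerol, on the y axis. The 961 genes called higher (red) and 977 called lower (blue) spread over the whole range of levels, and the highest points reach a log2 of 8.85 and the lowest −9.67.

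The 12 genes with the largest rise had log2 fold changes between 5.71 and 8.85 (largest SE 0.82, largest adjusted p = 1.6e-06). By the rule that chose them, every methanol library lay above every 48 h glycerol library. First was GQ67_03034 (chr3:67680-69576, minus strand), with a lowest, median and highest level of 4063, 6009 and 6628 CPM in methanol. At 48 h glycerol it had 13.2 and 14.2 CPM in Y-7556 and 10.4, 13.9 and 25.3 CPM in YB-4290. Its change was 8.85 ± 0.30 (SE, adjusted p = 2.0e-11), which took it out of the background of the glycerol libraries into the abundant genes.

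GQ67_02419 (chr1:307547-308601, minus strand) followed with a log2 change of 8.74 ± 0.37 (adjusted p = 1.4e-10). Its methanol libraries ran between 1018 and 1480 CPM with a median of 1238. The 48 h glycerol libraries had 3.14 and 1.90 CPM in Y-7556 and 7.06, 0.96 and 6.65 CPM in YB-4290, so all of them rest on few counts and the size of the fold is less certain than its direction. GQ67_00921 (chr2:1631586-1632599, minus strand) had the widest spread of the 12. Its methanol levels ran between 24.9 and 217 CPM with a median of 155, and replicate A of each strain supplied the 2 lowest values. At 48 h glycerol it had at most 1.66 CPM, and the change was 7.83 ± 0.82.

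2 of the 12 carry a symbol in the study. GQ67_02654 is listed as YDL218W, the name of a Saccharomyces cerevisiae gene of uncharacterised function. It had 246, 274 and 349 CPM (lowest, median, highest) in methanol and between 0.949 and 2.69 CPM at 48 h glycerol, a log2 change of 7.67 ± 0.24. GQ67_02261 is listed as YFL040W, which in S. cerevisiae is a putative transporter of the sugar porter family. It lies 19.4 kb from the end of chromosome 1 and had 708, 803 and 1267 CPM in methanol, against 6.51 and 7.36 CPM in Y-7556 and 8.74, 5.52 and 10.3 CPM in YB-4290 at 48 h glycerol. Its change was 7.26 ± 0.24 (adjusted p = 1.9e-11). In both genes the groups were separated by far more than the spread within either.

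The other 7 of the 12 rose by a log2 of 5.71 to 6.79. GQ67_05214 (chr4:1583138-1585129) had 4639, 5356 and 11753 CPM in methanol. Its 48 h glycerol levels were 95.6 and 92.3 CPM in Y-7556 and 81.7, 94.5 and 253 CPM in YB-4290, where replicate C stood above the rest, and the change was 6.12 ± 0.44. GQ67_00926 encodes a short transcript of 369 bases. It had 3594, 3823 and 6039 CPM in methanol and between 48.7 and 80.1 CPM at 48 h glycerol, a change of 6.32 ± 0.22. GQ67_04676 was the steadiest of the 12, with 3787 to 4862 CPM in methanol, 64.6 to 77.8 CPM at 48 h glycerol and a change of 6.27 ± 0.19.

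**Figure D2:**
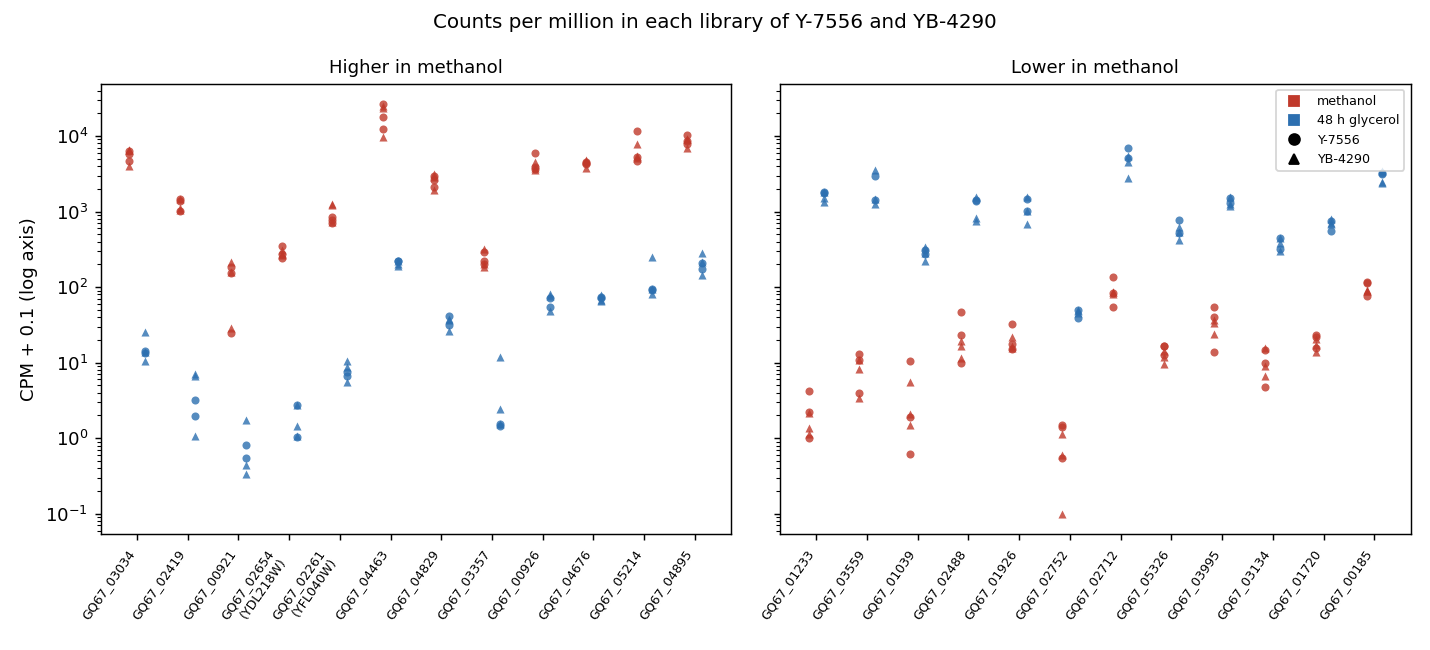
Levels in CPM (plus 0.1, log axis) of the 12 genes with the largest rise (left) and the 12 with the largest fall (right), 1 point per library, methanol (red) left of 48 h glycerol (blue), circles for Y-7556 and triangles for YB-4290. No gene overlaps between conditions, as the choice of genes required, and the strains lie among each other within each condition.

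Methanol also reordered the most abundant genes. The highest mean level among risen genes belonged to GQ67_04463 (chr4:335360-338051, plus strand). It had 9841, 20649 and 26431 CPM in methanol, against 225 and 222 CPM in Y-7556 and 190, 222 and 204 CPM in YB-4290 at 48 h glycerol. The change was 6.79 ± 0.33 (adjusted p = 3.8e-10), or 111-fold. It was the most abundant gene in 4 of the 6 methanol libraries. In replicate A of both strains it ranked 6 (Y-7556) and 8 (YB-4290), and these were its lowest methanol levels. Per transcript length, its mean of 8064 TPM in methanol was below that of GQ67_05002, at 19662 TPM, a shorter gene.

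GQ67_04499 (chr4:406576-408489) had 9734, 11919 and 13058 CPM in methanol and between 251 and 358 CPM at 48 h glycerol, a change of 5.61 ± 0.17. 3 further risen genes of high abundance started from a high level. GQ67_01400 averaged 13640 ± 2374 CPM in methanol and 3667 ± 453 CPM at 48 h glycerol (SD, n = 6 and 5, log2 change 2.21 ± 0.18). GQ67_05002 averaged 12676 ± 2320 CPM in methanol and 2764 ± 676 CPM at 48 h glycerol (2.54 ± 0.20). GQ67_02359 averaged 11306 ± 1209 CPM in methanol and 6095 ± 1060 CPM at 48 h glycerol (1.19 ± 0.19), which on the TPM scale was 0.87, and 0.99 without replicate A of both strains, and so under the fold minimum. The abundant end of the methanol transcriptome thus held genes that were scarce on glycerol beside genes that were already abundant there.

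**Figure D3:**
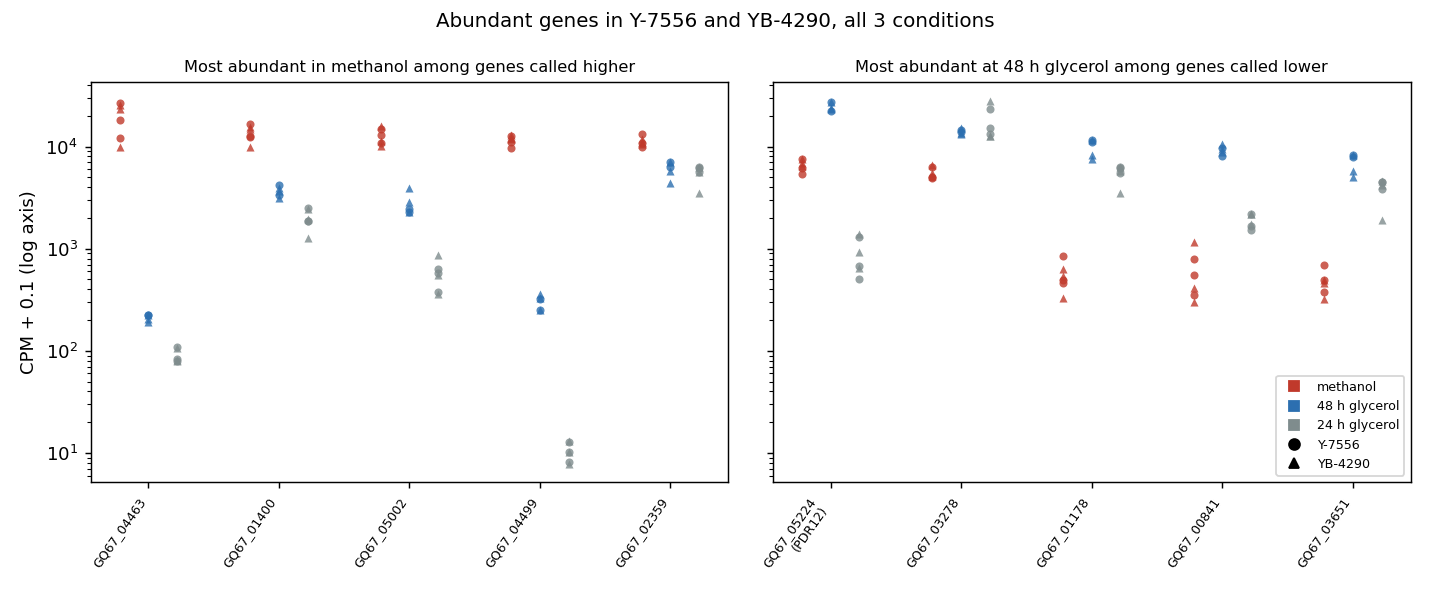
Levels in CPM (plus 0.1, log axis) of the 5 risen genes most abundant in methanol (left) and the 5 fallen genes most abundant at 48 h glycerol (right), 1 point per library, with methanol (red), 48 h glycerol (blue) and 24 h glycerol (grey). GQ67_04463 and GQ67_04499 lie at 9734 CPM or above in methanol and at 358 CPM or below in every glycerol library, while PDR12 is highest at 48 h glycerol and lowest at 24 h glycerol.

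The 12 genes with the largest fall had log2 changes between −9.67 and −4.65 (largest SE 0.41, largest adjusted p = 1.4e-08). GQ67_01233 (chr2:2170626-2172211, plus strand) fell furthest. It had 0.90, 1.65 and 4.14 CPM in methanol, against 1793 and 1749 CPM in Y-7556 and 1533, 1842 and 1333 CPM in YB-4290 at 48 h glycerol, a change of −9.67 ± 0.27 (adjusted p = 1.4e-11). GQ67_03559 (chr3:939467-941477, minus strand) had 3.28, 9.44 and 13.1 CPM in methanol. At 48 h glycerol it had 2935 and 1439 CPM in Y-7556 and 3502, 1469 and 1258 CPM in YB-4290, where replicate A of each strain was above the others, and its change was −7.76 ± 0.41.

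GQ67_02712 (chr1:812647-813503) was among the abundant genes of the late glycerol culture. It had 55.1, 84.5 and 136 CPM in methanol and between 2753 and 6958 CPM at 48 h glycerol, a change of −5.52 ± 0.29. GQ67_05326 had 9.51, 13.4 and 16.8 CPM in methanol, against 779 and 520 CPM in Y-7556 and 624, 537 and 425 CPM in YB-4290 at 48 h glycerol (−5.10 ± 0.17). GQ67_02752, the lowest of the 12 in level, had 0 to 1.38 CPM in methanol and 39.3 to 50.2 CPM at 48 h glycerol. The remaining 7 genes had means of 3.59 to 95.9 CPM in methanol and of 286 to 2926 CPM at 48 h glycerol, so these genes were well expressed in the late glycerol culture and low in methanol.

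Among abundant fallen genes, PDR12 (GQ67_05224) was by CPM the top gene of every 48 h glycerol library. Per transcript length, its mean of 6017 TPM there was below that of GQ67_01556 (12938 TPM) and of GQ67_03278 (8092 TPM). In S. cerevisiae PDR12 encodes a plasma membrane ABC transporter that exports weak organic acids. It had 5431, 6692 and 7590 CPM in methanol, against 22270 and 27525 CPM in Y-7556 and 23390, 27578 and 23648 CPM in YB-4290 at 48 h glycerol. Its change was −1.59 ± 0.16 (adjusted p = 6.2e-07), and its methanol level was still that of an abundant transcript. GQ67_01178, GQ67_00841 and GQ67_03651 fell further, by −3.92 ± 0.24, −3.64 ± 0.33 and −3.64 ± 0.22. Their mean levels were 551, 597 and 474 CPM in methanol, and at 48 h glycerol 10012, 9316 and 7072 CPM. GQ67_03278 averaged 5594 ± 727 CPM in methanol and 14035 ± 706 CPM at 48 h glycerol. Its change of −1.01 ± 0.16 sat at the fold minimum, which it missed when any 1 of 6 libraries was left out (lowest size −0.95, without replicate B of YB-4290 at 48 h glycerol).

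The 24 h glycerol cultures, from which the methanol cultures were started, gave a second reference that shares the methanol libraries with the first. Against it 1297 genes were higher in methanol (25.8%) and 1398 lower (27.8%) of 5028 tested, 53.6% in all. All 12 genes of largest rise were also called higher against 24 h glycerol. GQ67_04499 had 7.68, 10.1 and 12.9 CPM at 24 h glycerol, and its log2 change against that reference was 10.54 ± 0.25, compared with 5.61 ± 0.17 against 48 h glycerol. GQ67_05214 had 14.7, 20.3 and 21.5 CPM at 24 h glycerol, a change of 8.85 ± 0.42. These 2 genes were thus higher in the older glycerol culture than in the younger one, in every library. YFL040W went the other way at 24 h glycerol, with 11.4, 75.1 and 110 CPM, and its change against that reference was 4.22 ± 0.47.

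The genes of largest fall separated by their level in the younger culture. Of the 12, 8 were called lower in methanol also against 24 h glycerol, 2 were called higher and 2 were not called. GQ67_03995 had 990, 1063 and 1458 CPM at 24 h glycerol, a range that overlapped its 48 h levels, and its change was −4.71 ± 0.28 against 24 h glycerol and −5.09 ± 0.28 against 48 h glycerol. GQ67_01233 had only 2.13, 3.90 and 16.3 CPM at 24 h glycerol, and its change against that reference was −1.13 ± 0.46 (adjusted p = 0.033). GQ67_02712 and GQ67_05326 were higher in methanol than at 24 h glycerol, by 2.49 ± 0.34 and 2.84 ± 0.27. PDR12 had 503, 803 and 1378 CPM at 24 h glycerol, and it was likewise higher in methanol by that reference (3.24 ± 0.29, adjusted p = 1.2e-08). For such genes the direction of the methanol response depends on which glycerol culture it is set against.

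Among the genes of the study are 14 that it pairs with a symbol, places by a variant or, as for GQ67_02041, describes in its text. All were tested, 3 were higher in methanol (21.4%), 3 lower (21.4%) and 8 not called. These shares are near the 19.2% and 19.5% over all genes tested. The median log2 change was −0.52 (all genes 0.00). Some were chosen by the study for their expression at 24 h glycerol across strains, and the counts are a description. Besides YDL218W and YFL040W, GQ67_02041 rose. The study describes it as a cell wall gene. It had 71.5, 114.7 and 132 CPM in methanol. At 48 h glycerol it had 44.9 and 42.5 CPM in Y-7556 and 39.0, 41.0 and 36.5 CPM in YB-4290 (1.68 ± 0.17, adjusted p = 5.4e-07). Its levels at 24 h glycerol, 75.5 to 189 CPM, overlapped those in methanol.

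HIS4, a multifunctional enzyme of histidine biosynthesis, fell. It had 41.6, 60.01 and 85.9 CPM in methanol, against 702 and 506 CPM in Y-7556 and 537, 546 and 405 CPM in YB-4290 at 48 h glycerol, a change of −2.87 ± 0.19 (adjusted p = 1.0e-08). CTR1, named for a high-affinity copper transporter of the plasma membrane, fell by −1.22 ± 0.15. It averaged 652 ± 96.4 CPM in methanol and 1878 ± 203 CPM at 48 h glycerol. FRE1, named for a cell surface ferric and cupric reductase, averaged 1294 ± 333 CPM in methanol and 2033 ± 289 CPM at 48 h glycerol. At −0.35 ± 0.21 on the TMM scale it did not pass the test (adjusted p = 0.14). Of CTR1 and FRE1, the copper transporter passed and the reductase did not.

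FLO11-BSC1, named for flocculins of the cell surface, was not called. In methanol it had 1604 CPM in replicate A of Y-7556 and 1689 CPM in replicate A of YB-4290, and between 351 and 475 CPM in the other 4 libraries. It had between 1023 and 1532 CPM at 48 h glycerol, a change of −0.25 ± 0.43 (adjusted p = 0.62). With replicate A of both strains left out it was called lower, at −1.38 (adjusted p = 4.6e-06). ZPS1, in S. cerevisiae a cell surface protein induced at low zinc, had 1.76 to 6.11 CPM in methanol and 4.56 to 18.2 CPM at 48 h glycerol (adjusted p = 0.086). NIT1, named for nitrilase, had 7.06 to 20.01 CPM in methanol and 9.75 to 14.9 CPM at 48 h glycerol (adjusted p = 0.86). SMC3, a subunit of the cohesin ring that holds sister chromatids together, averaged 14.0 ± 6.24 CPM in methanol and 24.4 ± 4.38 CPM at 48 h glycerol (−0.57 ± 0.25, adjusted p = 0.051). Its level was higher at 24 h glycerol, at 155 ± 97.0 CPM.

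RVB1, an ATPase of chromatin remodelling complexes, averaged 90.6 ± 20.6 CPM in methanol and 225 ± 21.4 CPM at 48 h glycerol. Its change of −0.999 ± 0.16 (adjusted p = 5.4e-05) lay just short of the fold minimum, and it was called under several alternatives. SEF1, named for a transcription factor, had 84.0 to 136 CPM in methanol and 171 to 242 CPM at 48 h glycerol (−0.53 ± 0.17, adjusted p = 0.013, below the fold minimum).

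RSF2, in S. cerevisiae a zinc finger regulator of transcription, is of interest because the study describes a longer form of its protein in Y-7556 and YB-4290 than in Y-11430. The study reports the longer form in YB-4289, YB-378 and Y-17741 as well. In the Y-11430 annotation RSF2 is GQ67_03630 (chr3:1072725-1074911, minus strand) and has 728 codons before its stop. The next annotated gene, GQ67_03629 (chr3:1072176-1072640, minus strand), lies in the same frame directly downstream, and its stop is 183 codons past that of RSF2. RSF2 had 35.9, 46.0 and 76.9 CPM in methanol, against 81.3 and 86.9 CPM in Y-7556 and 111, 70.6 and 99.0 CPM in YB-4290 at 48 h glycerol. Its change of −0.51 ± 0.17 passed on p (adjusted p = 0.014) and not on size, and the groups overlapped.

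GQ67_03629 lay close to RSF2 in its change. It had 11.5, 16.02 and 25.7 CPM in methanol and 28.3, 30.4, 35.0, 31.0 and 32.2 CPM at 48 h glycerol (−0.54 ± 0.20, adjusted p = 0.026). In Y-11430 the values of both genes lay in the opposite order, with every methanol library above every glycerol one. RSF2 had 133, 157 and 179 CPM in methanol and 63.5, 79.1 and 70.6 CPM at 48 h glycerol there, and GQ67_03629 had 60.5, 66.1 and 74.3 CPM in methanol and 15.3, 19.5 and 16.5 CPM at 48 h glycerol. The response of Y-7556 and YB-4290 differed from that of Y-11430 by −1.77 ± 0.23 for RSF2 (adjusted p = 9.8e-07) and by −2.59 ± 0.29 for GQ67_03629 (adjusted p = 8.0e-08), in the fit described below. In YB-4289 the RSF2 levels were 29.8, 47.9 and 57.0 CPM in methanol and 92.3, 125 and 108 CPM at 48 h glycerol, and the difference from that strain was 0.32 ± 0.25 (adjusted p = 0.62).

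Whether the response is the same in Y-7556 and in YB-4290 was asked by fitting each strain alone within 1 model. In Y-7556, 980 genes were higher in methanol (19.6%) and 977 lower (19.5%), 39% of those tested. In YB-4290, 957 were higher (19.1%) and 953 lower (19%), 38.1% in all. The test of the difference between these responses called 0 of 5012 genes (0%), in DESeq2 as in edgeR, with 34 genes at an unadjusted p under 0.05. Chance alone would give about 1 in 20, so 34 is far fewer and the test was conservative. Across genes the log2 changes of the strains correlated with r = 0.98 (5012 genes, which are not independent replicates and share the library scaling of their strain).

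All 1938 genes called over both strains had the same sign in each strain, and in 1765 of them the strains differed by less than a log2 of 0.5 (median difference 0.17). Both strains enter the call, so these counts are a description. The count of 0 does not show that the responses were equal. The fits take libraries as independent, although same-lettered libraries of the 2 strains deviated together. The p-values of the strain difference can then be too large, and those of the comparison over both strains too small. The median SE of the strain difference was a log2 of 0.33, only 2 libraries stood for Y-7556 at 48 h glycerol, and among the called genes the strains differed by up to 3.61. With the replicate letters as a block shared by both strains within each condition, 0 genes were called as well. Among the 24 genes of largest change the strain difference ran up to a log2 of 1.68, in GQ67_03357, whose level in replicate C of YB-4290 at 48 h glycerol was 11.96 CPM against 1.35 to 2.35 CPM in the other 4 (smallest unadjusted p among the 24, 0.094). The labels say nothing of whether replicates came from separate starter cultures, and p-values then measure the spread between these libraries, which may be technical.

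**Figure D4:**
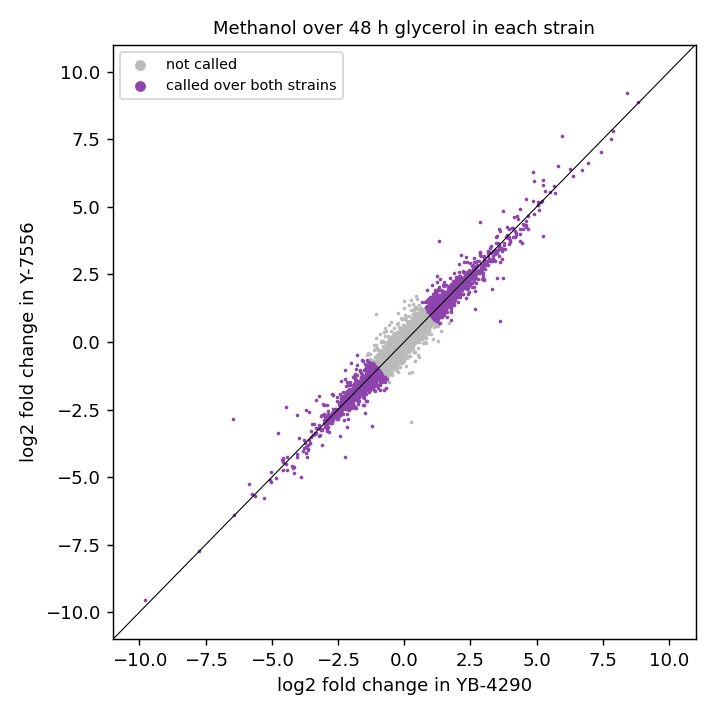
Log2 fold change of methanol over 48 h glycerol in Y-7556 (y axis) against that in YB-4290 (x axis), 1 point per gene for 5012 genes, with genes called over both strains in purple and the line of equal change. The 1938 called genes lie along the line, with r = 0.98 over all genes.

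The response of Y-7556 and YB-4290 was next set against that of Y-11430, with the difference of the responses as the test. The methanol libraries of Y-11430 fell apart into 2 sets, most plainly in GQ67_04371, which had 12040, 17747 and 14852 CPM in replicates A, C and F and between 62.8 and 238 CPM in B, D, E and G. Of 5039 genes tested, 595 had a higher response in Y-7556 and YB-4290 (11.8%) and 763 a lower one (15.1%), 26.9% in all. Among the 594 genes with a higher response that the first fit also tested, the median response was a log2 CPM change of 1.24 in Y-7556 and YB-4290 and −0.11 in Y-11430, and in 263 of them the signs were opposite. Among the 762 with a lower response, the medians were −1.67 in Y-7556 and YB-4290 and 0.03 in Y-11430, with opposite signs in 340. Without replicates A, C and F of Y-11430 in methanol 1328 genes were called (586 higher, 742 lower), and without B, D, E and G 1481 (723 higher, 758 lower). With Y-12729, another strain nearly identical in sequence, in place of Y-11430, 690 genes were called, 307 higher and 383 lower. Y-12729 had 3 methanol and 3 48 h glycerol libraries, beside 7 and 3 of Y-11430. How far the number of libraries moved this count was not tested.

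Of the 12 genes of largest rise, 9 rose more in Y-7556 and YB-4290 than in Y-11430, 1 rose less and 2 were not called. The genes were chosen for an extreme response in the same Y-7556 and YB-4290 libraries, which favours such differences, so these counts are a description. GQ67_00926 turned its direction. In Y-11430 it had 25.6, 93.7 and 170 CPM in methanol and 573, 432 and 508 CPM at 48 h glycerol, so that its response was between −4.24 and −1.56 in the 7 methanol libraries of Y-11430, compared with 5.73 to 6.57 in the 6 of Y-7556 and YB-4290. The difference was 8.72 ± 0.54 (adjusted p = 6.8e-12). YFL040W did the same. It had 42.8, 101.9 and 144 CPM in methanol and 296, 241 and 212 CPM at 48 h glycerol in Y-11430, and its difference was 8.55 ± 0.44 (adjusted p = 5.1e-13). In both genes the 3 lowest methanol levels of Y-11430 were those of replicates A, C and F, at 25.6 to 39.4 CPM in GQ67_00926 and 42.8 to 71.1 CPM in YFL040W. Without these libraries the differences were 8.20 in GQ67_00926 and 8.19 in YFL040W, and without B, D, E and G they were 10.03 and 9.28.

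GQ67_03034 and GQ67_02419 were also higher in every methanol library of Y-11430, by far less. GQ67_03034 had 61.0, 89.0 and 127 CPM in methanol and 22.2, 19.8 and 16.5 CPM at 48 h glycerol there, a difference of 6.66 ± 0.35. That difference was 2.85 and no longer called with Y-12729 in its place (adjusted p = 0.076). GQ67_02419 had 123, 149 and 257 CPM in methanol and 50.3, 43.2 and 54.1 CPM at 48 h glycerol in Y-11430, a difference of 6.88 ± 0.43. The abundant GQ67_04463 had 691, 954 and 1752 CPM in methanol in Y-11430, and its difference was 4.64 ± 0.41 (adjusted p = 1.2e-09).

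The gene that rose less was GQ67_05214. In the 7 methanol libraries of Y-11430 it had 43858, 51834 and 61668 CPM, all above the 4639 to 11753 CPM of Y-7556 and YB-4290. At 48 h glycerol it had 161, 147 and 162 CPM in Y-11430. Its response was lower in Y-7556 and YB-4290 by −2.36 ± 0.47 (adjusted p = 0.00020).

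Among the 4 largest differences in the lower direction were 3 genes whose levels in Y-11430 were higher in every methanol library than in every 48 h glycerol library. GQ67_04205 (chr3:2079914-2081206) had 68.3, 76.4 and 99.0 CPM in methanol and 69.8 and 47.9 CPM in Y-7556 and 59.9, 45.1 and 51.8 CPM in YB-4290 at 48 h glycerol. In Y-11430 it had 9817, 12192 and 14134 CPM in methanol and 75.3, 88.3 and 89.4 CPM at 48 h glycerol. Its difference was −6.48 ± 0.42 (adjusted p = 6.8e-12). GQ67_01599 (chr1:2417932-2419594) had 24.7, 32.7 and 62.3 CPM in methanol and 3.84 to 6.06 CPM at 48 h glycerol in Y-7556 and YB-4290. In Y-11430 it had 3499, 4070 and 5821 CPM in methanol and 4.38, 6.18 and 4.71 CPM at 48 h glycerol, and the difference was −6.73 ± 0.64 (adjusted p = 8.9e-09). Its 48 h glycerol levels overlapped between these strains.

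GQ67_04371 had the largest fitted difference, −8.41 ± 2.17 (adjusted p = 0.0034). It had 9.13, 18.4 and 30.0 CPM in methanol and 12.6 to 18.6 CPM at 48 h glycerol in Y-7556 and YB-4290. Its mean in Y-11430 methanol rests on replicates A, C and F. The difference was −2.77 without these and −9.58 without B, D, E and G, and it was not called with the replicate letters as a block (adjusted p = 0.068). All 12 genes of largest fall, chosen in the same way, had a lower response than in Y-11430. GQ67_03559, at −6.47 ± 0.71, had 1984, 3042 and 4223 CPM in methanol and 7947, 6663 and 9529 CPM at 48 h glycerol in Y-11430. The near absence in methanol was thus seen in Y-7556 and YB-4290 and not in Y-11430. In YB-4289 the gene was low in methanol as well, with 3.83, 4.97 and 52.8 CPM, against 1390, 728 and 505 CPM at 48 h glycerol.

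**Figure D5:**
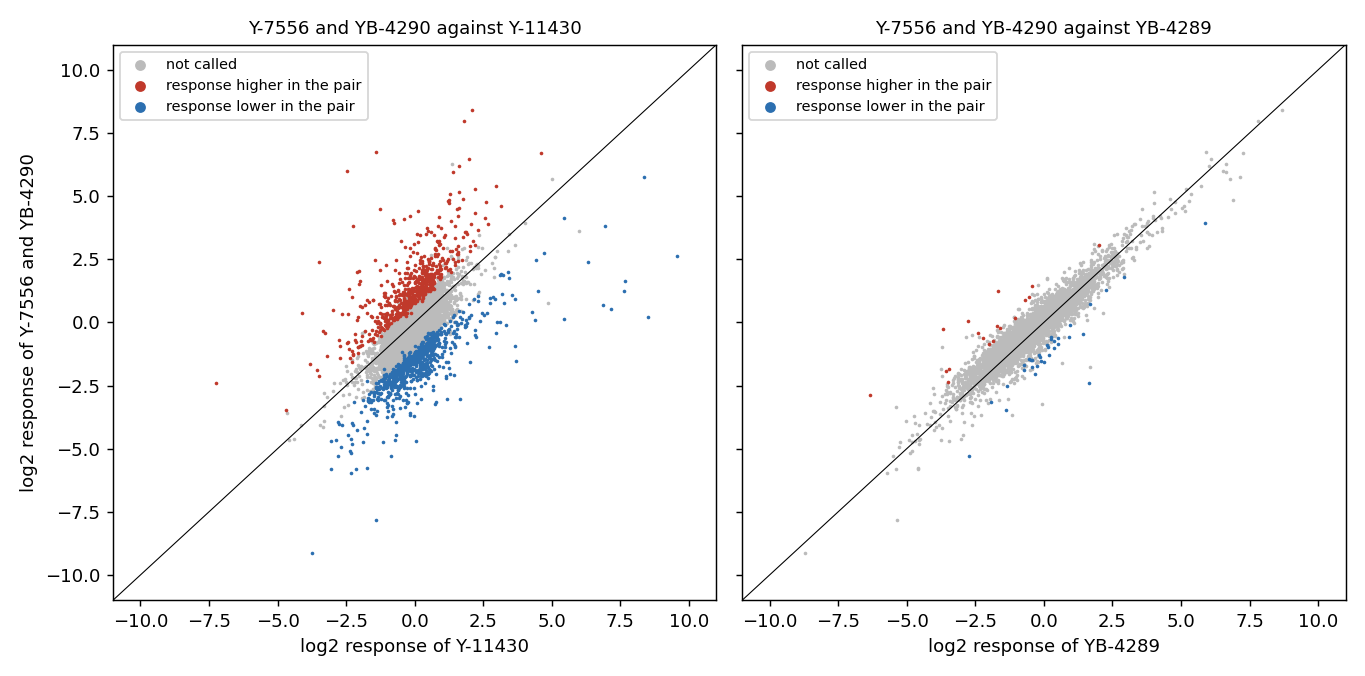
Log2 ratio of mean CPM (plus 1), methanol over 48 h glycerol, in Y-7556 and YB-4290 (y axis) against Y-11430 (x axis, left) and YB-4289 (x axis, right), 1 point per gene for 5009 genes, with genes whose response was called higher (red) or lower (blue) in Y-7556 and YB-4290 and the line of equal response. The points scatter widely on the left (r = 0.57) and narrowly on the right (r = 0.94).

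Against YB-4289, which is more distant in sequence, few differences were found. Of 5039 genes, 18 had a higher response in Y-7556 and YB-4290 (0.357%) and 33 a lower one (0.655%), 1.01% in all, with 712 at an unadjusted p under 0.05. This count moved with single libraries of YB-4289. It was 108 without replicate A of YB-4289 in methanol and 25 without replicate B. DESeq2 called 78 genes and the replicate block left 15. Across 5009 genes the log2 responses correlated with r = 0.94, and with r = 0.57 for Y-11430. Points of these correlations share the libraries of Y-7556 and YB-4290 and are given as a description. Of the 24 genes of largest change, 1 differed from YB-4289.

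That gene was GQ67_05326, with 24.8, 28.3 and 38.0 CPM in methanol and 327, 124 and 169 CPM at 48 h glycerol in YB-4289. It fell further in Y-7556 and YB-4290 (difference −2.72 ± 0.39, adjusted p = 0.00025). The other 3 largest differences came from 1 end of chromosome 3, between 30.6 and 88.1 kb from the chromosome end. GQ67_03023 (chr3:30641-31126) had 3.93, 9.66 and 11.5 CPM in methanol and 9.43, 12.3, 8.74, 12.7 and 11.0 CPM at 48 h glycerol in Y-7556 and YB-4290. In YB-4289 it had 2.11, 2.55 and 2.98 CPM in methanol and 46.9, 41.4 and 45.7 CPM at 48 h glycerol, and the difference was 3.46 ± 0.40 (adjusted p = 2.1e-05).

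GQ67_03026 (chr3:35889-40734) had 108, 132 and 228 CPM in methanol in Y-7556 and YB-4290 and 3.32, 8.45 and 24.6 CPM in YB-4289. The 48 h glycerol levels were 990 to 1218 CPM in Y-7556 and YB-4290 and 897, 1193 and 1098 CPM in YB-4289, and the difference was 3.26 ± 0.47 (adjusted p = 0.00025). GQ67_03043 (chr3:88066-92490) had 3.86, 6.08 and 7.33 CPM in methanol and 68.7, 18.3, 69.6, 12.5 and 11.96 CPM at 48 h glycerol in Y-7556 and YB-4290. The levels of 68.7 and 69.6 CPM were those of replicate A of each strain, far above the others. In YB-4289 the gene had 14.3, 15.1 and 44.3 CPM in methanol and 13.1, 3.76 and 4.83 CPM at 48 h glycerol, a difference of −4.12 ± 0.76 (adjusted p = 0.0042). Reads of YB-4289 were assigned to the Y-11430 sequence, and whether its sequence differences in this region touch these counts was not tested.

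The genes that changed were spread over the genome. Between 17.6% and 20.5% of the genes of each chromosome rose and between 18.8% and 21.4% fell, beside 19.2% and 19.5% over all genes. Of 66 genes within 25 kb of a chromosome end, 60 passed the filter on low counts, and 11 of these rose and 9 fell (median log2 change 0.23). Genes with introns leaned to the lower side. Of 208 genes with 2 exons, 26 rose (12.5%) and 56 fell (26.9%), with a median of −0.21, and of 29 genes with 3 or more exons, 5 rose and 9 fell, with a median of −0.26. The 4775 genes with 1 exon had a median of 0.02. Among 518 tested genes with transcripts under 600 bases, 79 rose (15.3%) and 105 fell (20.3%), with a median of −0.18.

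Neighbouring genes that face away from each other across a shared upstream region can share regulation, and 1226 such pairs within 1000 bases were tested. In 69 pairs both genes rose, in 64 both fell, in 61 1 rose and the other fell, in 493 a single gene was called and in 539 none. Of the 2452 genes of these pairs 421 rose (17.2%) and 460 fell (18.8%), beside 19.2% and 19.5% of all genes. How many same-direction pairs those shares alone would give was not tested. Over the pairs the log2 changes of the 2 genes correlated with r = 0.21, a description over pairs that share the same libraries. GQ67_01060 and GQ67_01061 (chromosome 2, 285 bases apart) rose by 3.16 ± 0.22 and 3.16 ± 0.28. GQ67_01061 had 584, 877 and 1506 CPM in methanol and 113 to 172 CPM at 48 h glycerol.

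GQ67_05038 and GQ67_05039 (chromosome 4, 165 bases apart) rose by 3.06 ± 0.22 and 4.55 ± 0.20, and GQ67_04861 and GQ67_04862 (240 bases apart) by 4.27 ± 0.14 and 3.06 ± 0.16. Among fallen pairs, GQ67_04460 and GQ67_04461 (103 bases apart) had changes of −3.35 ± 0.17 and −4.49 ± 0.36. GQ67_04461 had 8.55, 24.8 and 37.9 CPM in methanol and 670, 417, 949, 509 and 403 CPM at 48 h glycerol. GQ67_01590 and GQ67_01589 (18 bases apart) fell by −2.30 ± 0.17 and −3.28 ± 0.21, and GQ67_01810 and GQ67_01809 (281 bases apart) by −2.89 ± 0.19 and −2.30 ± 0.28. The members of each of these 6 pairs moved in the same direction, as their choice required.

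The pattern of the abundant GQ67_04463 over the 17 libraries of both strains was most closely followed by GQ67_01056 (Pearson r = 0.994 on log2 CPM), GQ67_03034 (0.994), GQ67_02230 (0.993), GQ67_04319 (0.992) and GQ67_04829 (0.992). The libraries fall into conditions, so these values mostly measure the step between them. GQ67_01056 had 326, 708 and 783 CPM in methanol, 54.3, 40.1, 54.2, 39.4 and 47.2 CPM at 48 h glycerol and 25.4 to 32.8 CPM at 24 h glycerol. GQ67_04829, also among the 12 of largest rise, had 1904, 2745 and 3173 CPM in methanol, 25.9 to 41.1 CPM at 48 h glycerol and 24.4 to 29.5 CPM at 24 h glycerol. In both, every methanol library lay above every glycerol library.

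The assembly also holds a contig of the linear plasmids, cytoplasmic DNA elements of some yeast strains, with 7 genes in the tables. Of these 3 passed the filter on low counts and 0 were called. Their summed level was 57.9 ± 65.0 CPM in methanol and 111 ± 108 CPM at 48 h glycerol (SD, n = 6 and 5, exact permutation test within strain, two-sided, p = 0.20). Replicate A of YB-4290 had the highest level in both conditions, 190 CPM in methanol and 267 CPM at 48 h glycerol, and the lowest levels were 19.8 CPM in methanol and 28.7 CPM at 48 h glycerol. The spread within each condition exceeded the difference between them.

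By the number of genes that hold 50% of the counts, methanol libraries were more concentrated than glycerol libraries. The number of genes that together held 50% of the listed counts was 124 to 149 in methanol, 190 to 283 at 48 h glycerol and 204 to 374 at 24 h glycerol, without overlap between methanol and either glycerol condition. The 10 most abundant genes held 12.1% ± 0.56 of the counts in methanol and 10.9% ± 1.07 at 48 h glycerol (SD, n = 6 and 5), a difference of 1.19 points (exact permutation test within strain, two-sided, p = 0.04). With single libraries left out p stayed under 0.05 in 3 of 11 cases. On the TPM scale the difference was 2.48 points (exact permutation p = 0.01). Without replicate A of YB-4290 at 48 h glycerol the difference was 0.777 points (exact permutation p = 0.09). Over the 20 most abundant genes the difference was 3.19 points (p = 0.005), the smallest that the 200 permutations can give. The permutations take the libraries of both strains as independent, although same-lettered ones deviated together, so these p-values can be too small. At 24 h glycerol the 10 most abundant genes held 12.2% ± 1.83 (SD, n = 6), no less than in methanol. By the counts of the 10 most abundant genes, the higher share in methanol was thus seen against 48 h glycerol only. On the TPM scale their share ran between 9.57% and 13.4% in methanol and between 8.06% and 9.87% at 24 h glycerol. The 20 most abundant genes held 18.2% to 20.3% of the counts in methanol and 13.1% to 20.3% at 24 h glycerol. These differences from 24 h glycerol were not tested.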

How the data were processed

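RNA-seq libraries of bulk yeast cultures were read as paired 40-nucleotide reads. Per the labels, the authors aligned them with STAR 2.5.3a and quantified genes with RSEM 1.3.0. The deposited expected counts, estimated counts of reads per gene made by the authors with RSEM, are not normalised, and 100% of the values were whole when checked. The deposited log2 table holds log2(TPM + 1). Coordinates come from the deposited annotation of the Y-11430 assembly. It lists 5167 features, and 51 of them have no row of values, for a reason not given in the sources used here. No sequences are printed. Reads of all strains were counted on the Y-11430 sequence. Near-identical gene copies were not checked, and whether counting used strand is not stated.

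Strain, condition and replicate letter came from the labels. The labels list no replicate B of Y-7556 at 48 h glycerol. The 11 libraries were tested with edgeR 4.0.16 (R 4.3.3): TMM scaling, filterByExpr over strain and condition, a robust quasi-likelihood fit with strain as block and a two-sided F test, with calls made at a Benjamini-Hochberg adjusted p under 0.05 and a log2 fold change of 1 or more in size. The strain difference used a mean per strain and condition. The 24 h glycerol comparison added 6 libraries, and the differences from Y-11430 and YB-4289 added their 16 libraries as interaction contrasts. The model was tested on simulated data. The simulated libraries were drawn independently, so that test cannot show how the shared deviations of same-lettered libraries affect the p-values. The differences from Y-11430 and from YB-4289 share the libraries of Y-7556 and YB-4290. Responses in single libraries are log2(CPM + 1) minus the mean of the strain's 48 h glycerol libraries. Library measures were tested by exact permutation within strain. Alternatives were RLE scaling, DESeq2 1.42.0, limma 3.58.1 on log2(TPM + 1), no count filter, other fold minimums, no strain block, a replicate block, a fit over the whole series and leaving out each library. Leaving out replicate A of both strains or sets of Y-11430 methanol libraries, and a block by letter within condition, were added after seeing the data.

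Named genes were the 12 risen and 12 fallen called genes of largest change with non-overlapping CPM and at least 10 CPM in the higher condition, the 5 most abundant risen and fallen, those for which the study gives a symbol, a variant position or a description, the 4 (Y-11430) and 2 (YB-4289) largest differences in each direction with non-overlapping responses, the 3 most strongly moved head-to-head pairs in each direction and the 5 genes most like GQ67_04463. HIS4, RSF2, SEF1, SMC3 and RVB1 were located by a variant position that the study lists. RCR2 was not located and is not reported. GQ67_03629 was added for its place beside RSF2. Members and lists were chosen with earlier results of these data known. Lists are described by counts and medians, without set tests.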

Additional observations from a re-analysis of the deposited data

Results flagged for a closer look

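A sample far from the rest of its group was looked for by Dixon's test in 144 groups of 5 or 6 libraries of Y-7556 and YB-4290, and 12 were found. Chance gives about 1 in 20. Replicate A of YB-4290 in methanol had the lowest share of counts in the 10 most abundant genes (11.0%) and the highest linear plasmid level (190 CPM). Replicate B of YB-4290 at 24 h glycerol had a plasmid level of 162 CPM. Replicate C of YB-4290 at 48 h glycerol was the highest of its group in 3 risen genes, GQ67_03034 (25.3 CPM), GQ67_03357 (11.96 CPM) and GQ67_05214 (253 CPM). Replicate C of Y-7556 in methanol, one of the shallowest libraries, was the highest in GQ67_01233 (4.14 CPM), GQ67_02488 (46.9 CPM), NIT1 (GQ67_00061, 20.01 CPM) and GQ67_01809 (3.45 CPM). In methanol, replicate B of Y-7556 stood apart in GQ67_00926 (6039 CPM) and replicate A of Y-7556 in GQ67_01599 (62.3 CPM). Leaving out each of these methanol and 48 h glycerol libraries in turn changed no call of the genes listed here.

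The methanol response of Y-7556 and YB-4290 differed from that of Y-11430 in 1358 genes and from that of YB-4289 in 51 genes, by the interaction tests of the report. Whether these 2 counts differ from each other was not tested. The contrasts differ in the number of libraries, with 10 for Y-11430 and 6 for YB-4289.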

How the results depend on the processing

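The count of 1938 called genes stayed within 1.5 times under every alternative that kept the fold minimum, and between 1892 and 1966 with single libraries left out. Without a fold minimum the counts were 3645 for both strains, 2963 for Y-7556, 3060 for YB-4290, 4117 against 24 h glycerol and 2298 for the difference from Y-11430, and with a log2 minimum of 2 the count for both strains was 599. Y-12729 in place of Y-11430 gave 690 calls. The difference from YB-4289 gave 78 calls with DESeq2 78 with replicate A of Y-7556 and YB-4290 left out, and between 25 and 108 with single libraries left out. The omissions of replicate A and of YB-4289 libraries were added after seeing the data. The share of the 10 most abundant genes differed by 0.777 to 1.43 points with single libraries left out, with p at or above 0.05 in 8 of 11 cases, and by 2.48 points on the TPM scale (exact permutation p = 0.01). The causes of the other shifts were not tested.

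Replicate letters did not pair methanol with 48 h glycerol libraries within a strain, although same-lettered libraries of the 2 strains deviated together within each condition. Same-lettered libraries of a strain correlated at 0.031 and −0.020 in Y-7556 and at 0.181, 0.152 and −0.174 in YB-4290. With a replicate block, 1904 genes were called for both strains and 15 for the difference from YB-4289. No named gene reversed. Depth limits genes at a few CPM, among the 11 libraries above all in replicate C of both strains in methanol. The comparison strains held shallower libraries, with a lowest total of 425037 in Y-11430 at 48 h glycerol and 473556 in YB-4289 in methanol. A level of a few CPM in these rests on very few counts, as for GQ67_01599 in Y-11430 and GQ67_03023 in YB-4289.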
